A study of Mus musculus with 9 samples.

Results

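The ubiquitin-conjugating (E2) enzymes are described here across 3 groups of G1E cells. Members were all rows of the deposited gene table with a symbol that starts with Ube2 and a letter, pseudogenes named -ps left out. That gave 39 of 27999 rows, of which 30 passed the low-count filter and were tested, 2 had too few counts and 7 had no count in any library. G1E is a mouse erythroid progenitor line derived from cells without functional Gata1, the transcription factor that drives red cell maturation. All groups were grown with mouse stem cell factor and erythropoietin and were spin-infected with virus made in 293T cells. The control carried the HMD vector empty, another group carried GATA1 wildtype in that vector and the third carried a GATA1 mutant, with 3 libraries each. All groups thus share the line's own lack of functional Gata1, although the mouse Gata1 row held counts in every library, at 37.8 to 43.2 CPM of the library total with the empty vector, 48.9 to 50.96 with the mutant and 43.7 to 46.3 with the wildtype. Whether those reads come from a functional transcript was not tested. The labels name neither the mutation nor the time from infection to lysis, and a single line limits all groups alike.

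An E2 enzyme takes activated ubiquitin from an E1 enzyme onto its active-site cysteine and passes it, usually with an E3 ligase, to a substrate. Which E2 is used helps set the kind of chain built, and a few members carry a ubiquitin-like protein (such as NEDD8 or ISG15) in place of ubiquitin. In maturing red cells, ubiquitin conjugation is known for clearing ribosomes, organelles and surplus proteins, and UBE2H and UBE2O are the E2 enzymes best known there. Some rows are related by name only. Ube2cbp encodes a protein that binds an E2, Ube2v1 and Ube2v2 encode E2 variants without the active-site cysteine, and Ube2uos is an antisense RNA.

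Library totals ran from 11364358 to 17289307 counts, so a count of 0 allows up to 3 counts, or 0.174 to 0.264 CPM (CPM are counts scaled to a common library total). Human GATA1 stood at 653, 706 and 598 CPM of the library total with the mutant and at 816, 715 and 921 CPM with the wildtype, groups that do not overlap. A part of this unequal level in the differences between those groups was not tested. The empty vector libraries held 0, 2 and 0 counts of it. A list of 10 erythroid genes summed to 1612 to 2031 CPM with the empty vector, 2822 to 2964 with the mutant and 18758 to 29798 with the wildtype. All 10 rose with the wildtype and 4 rose with the mutant, where 11.4% and 0.21% of all tested genes rose. This shift runs along with every wildtype difference given here, and its part in them was not tested. Markers of other blood lineages moved as well, where 11.9% of all tested genes fell with the wildtype and 0.0601% with the mutant. Mast cell and basophil markers summed to 740 to 834 CPM with the empty vector, 637 to 731 with the mutant and 273 to 293 with the wildtype; 4 of 5 tested fell with the wildtype (Kit, also a progenitor gene, Il1rl1, Cpa3 and Ms4a2) and 2 with the mutant (Cpa3 and Ms4a2), with Mcpt8 at 0. Megakaryocyte markers summed to 49.4 to 54.7, 36.4 to 41.03 and 23.8 to 30.04 CPM in the same order, 3 of 4 lower with the wildtype and Gp1bb and Vwf at 0. Granulocyte and monocyte markers summed to 9.23 to 11.4, 8.25 to 9.95 and 2.20 to 2.40 CPM, 3 of 4 lower with the wildtype (Fcgr3, Tyrobp and Lyz2) and Elane and S100a8 at 0. Of 2 lymphoid markers tested, Lck rose and Gata3 fell, with Cd3e at 0. The part of these lists in the E2 values was not tested either. In bulk RNA, fewer cells of a type and less RNA per cell cannot be told apart.

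The cells held a broad set of E2 transcripts, led by Ube2c when scaled to exon length. Scaled to exon length, the mean level of Ube2c was 104 CPM per kb with the empty vector, 98.8 with the mutant and 189 with the wildtype, the first rank of all E2 rows in each group. Before that scaling, the mean of Ube2d3 was above that of Ube2c with the empty vector (422 and 271 CPM). It was below Ube2c with the mutant (251 and 257) and the wildtype (350 and 492). Per kb Ube2d3 had rank 13 with the empty vector, with 24499 bases of exon taken as its length. Ube2g2 took rank 2 at 59.6 CPM per kb with the empty vector, and Ube2a (41.7), Ube2b (38.1) and Ube2l6 (30.8) came next. Exons of Gm49325 and Mir1930 overlap Ube2g2 on its own strand, and reads shared with them were not measured. With the empty vector, the single libraries of Ube2b and Ube2l6 overlapped, from 22.5 to 53.3 for Ube2b and from 29.98 to 32.2 for Ube2l6, so their order is not settled. Scaled to the longest transcript instead of all exons, Ube2e3 moved from rank 8 (23.6) to rank 4 (46.2), above Ube2b and Ube2l6. With the wildtype, Ube2l6 took rank 2 at 109 CPM per kb. Ube2o and Ube2h stayed among the low rows, at ranks 26 and 27 with the empty vector and 20 and 23 with the wildtype. No count fell on Ube2d1, Ube2e2, Ube2u, Ube2uos, Ube2ql1, Ube2dnl1 or Ube2dnl2 in any library. Ube2d2b and Ube2d4, the latter a processed pseudogene in the annotation, reached at most 0.13 and 0.226 CPM. Summed over all members, the E2 rows held 2734, 2507 and 1902 CPM with the empty vector, 1902, 1890 and 2140 with the mutant and 2669, 2612 and 2924 with the wildtype. Empty vector replicate 3 lay in the range of the mutant, while replicates 1 and 2 lay near the wildtype.

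Wildtype GATA1 raised a small set of these genes and the mutant raised none that passed the test. Against the empty vector, Ube2l6, Ube2c, Ube2o, Ube2h and Ube2f rose with the wildtype, 5 of 30 tested rows, and no row fell (edgeR quasi-likelihood test, Benjamini-Hochberg adjusted p under 0.05). Of all 9978 tested genes, 11.4% rose and 11.9% fell. At an unadjusted p under 0.05, 9 E2 rows were higher and 5 lower, against 17.6% and 18.8% of all genes, and DESeq2 called 8 higher and 2 lower, against 13.9% and 12.1%. The median log2 fold change was 0.09 over the E2 rows and -0.04 over all tested genes. Without empty vector replicate 3, 4 rows rose and 5 fell (Ube2w, Ube2e3, Ube2q1, Ube2e1 and Ube2g1), against 11.0% and 12.8% of all genes. Without wildtype replicate 3, 7 rose and 4 fell, against 16.0% and 16.3% of all genes.

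With the mutant, 0 of 30 rows were called higher and 0 lower than with the empty vector, by edgeR and by DESeq2. Among all tested genes 0.21% rose and 0.0601% fell by edgeR, and 0.631% and 0.391% by DESeq2. At an unadjusted p under 0.05, edgeR put Ube2o higher and 8 rows lower, against 5.0% and 7.87% of all genes. The count of 0 lower changed with empty vector replicate 3 and with the low-count filter. Without that replicate, 7 rows were called lower (Ube2w, Ube2t, Ube2d3, Ube2e1, Ube2b, Ube2g1 and Ube2v2), against 6.05% of all genes, and none higher, against 2.25%. With no low-count filter and all 9 libraries, 5 were called lower (Ube2w, Ube2d3, Ube2b, Ube2g1 and Ube2v2), against 1.97% of all genes, and none higher, against 0.792%. With offsets for gene length and GC content, 0 rows were called in either direction. At an unadjusted edgeR p under 0.05, these offsets gave 3 rows higher and 2 lower, against 12.5% of all genes in both directions together. The log2 fold changes of the 5 named rows ran from -0.43 (Ube2d3) to -0.25 (Ube2v2) with the offsets. In the fit without offsets they ran from -0.81 (Ube2v2) to -0.57 (Ube2b).

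The mutant group lay below the wildtype group for 8 of 30 rows and above it for none: Ube2l6, Ube2c, Ube2o, Ube2a, Ube2f, Ube2b, Ube2h and Ube2j1 (edgeR, adjusted p under 0.05). Of all tested genes 12.7% were lower and 13.2% higher. The median log2 fold change was -0.24 over the E2 rows and -0.01 over all genes. The comparisons with the empty vector share its 3 libraries, and this comparison shares libraries with both. In the mutant and wildtype groups replicate 3 stood apart from replicates 1 and 2, which were not clearly paired by number. With the number as a block, chosen after seeing the data, and these 6 libraries alone, 13 rows were lower and 1 higher. Of all genes 24.5% were lower and 23.6% higher in that fit. The block added Ube2t, Ube2d3, Ube2j2, Ube2v2 and Ube2d2a on the lower side and Ube2q1 on the higher side. Without wildtype replicate 3, Ube2q1 was called higher and 7 rows lower, against 15.7% and 15.6% of all genes.

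Some groups were apart without a call. Every wildtype library was above every empty vector library in 9 of 30 E2 rows (15.3% of all genes) and below in 1, Ube2q1 (17.3%). The mutant was above the empty vector in Ube2m and Ube2o, 2 rows (8.19% of all genes), and below it in Ube2c and Ube2e1, 2 rows (6.84%). Mutant libraries were all below wildtype libraries in 12 rows (20.9% of all genes) and above them in 0 (23.3%).

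**Figure D1:**
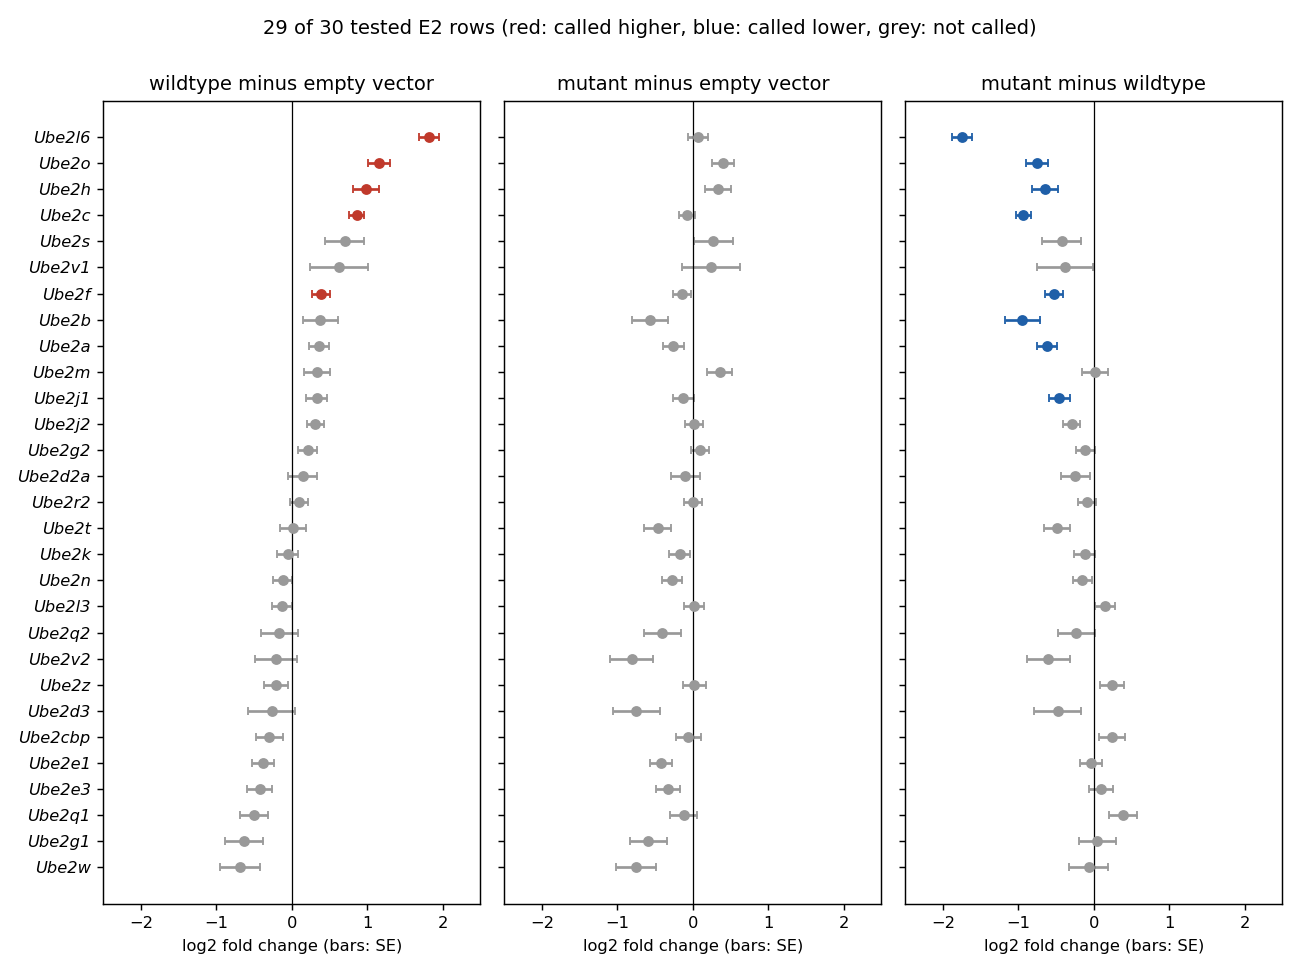
Log2 fold change (x axis, bars are SE) of 29 of the 30 tested E2 rows in the 3 comparisons, sorted by the difference between wildtype and empty vector; red rows were called higher, blue rows lower and grey rows were not called. The wildtype panel has 5 red rows, the mutant panel has none, and the panel of mutant minus wildtype has 8 blue rows.

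Ube2h and Ube2o, the members known for terminal red cell maturation, rose with the wildtype. UBE2H serves the CTLH ligase and is abundant in late erythroblasts, and UBE2O is a large enzyme with E2 and E3 activity that helps remove ribosomal proteins from reticulocytes. Ube2o (GRCm38, chr11:116537740-116581447, minus strand) stood at 14.01, 15.8 and 18.02 CPM with the empty vector, 22.1, 20.4 and 20.5 with the mutant and 39.4, 31.97 and 34.9 with the wildtype. The 3 groups do not overlap, with the mutant between the others. Its log2 fold change was 1.15 ± 0.15 (SE) with the wildtype, 2.22-fold, with an edgeR adjusted p of 9.38e-05. Against the wildtype, the mutant was lower by a log2 fold change of -0.76 ± 0.14 (edgeR adjusted p 0.00227). Against the empty vector, the mutant differed by 0.39 ± 0.15, with an unadjusted p of 0.018 and an edgeR adjusted p of 0.345.

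Ube2h (GRCm38, chr6:30211289-30304539, minus strand) gave 12.2, 16.4 and 13.1 CPM with the empty vector, 15.4, 18.5 and 18.5 with the mutant and 28.01, 23.01 and 31.2 with the wildtype. All wildtype libraries lay above all others, while the mutant and empty vector ranges overlap. It rose 1.97-fold with the wildtype, a log2 fold change of 0.98 ± 0.17 (edgeR adjusted p 0.00107). With the mutant its log2 fold change was 0.33 ± 0.17 against the empty vector, a range of -0.01 to 0.67 at ±2 SE (edgeR adjusted p 0.424). The mutant was lower than the wildtype by -0.65 ± 0.17 (edgeR adjusted p 0.0135), and this call is lost without mutant replicate 1, at an adjusted p of 0.0694. Both starts that RefSeq lists for this gene are shown because Ube2h is the only one of 7 called E2 genes matched there whose upstream window holds a GATA spelling. The 250 bases before the start are given 5′ to 3′ on the gene's strand (GRCm38.p6, minus strand), with matches on either strand in capitals. GATA spellings were AGATAA and its variant AGATAG, then TGATAA and its variant TGATAG, and the other motif searched was CACCC. The latter reads GGGTG on the other strand and is a core spelling bound by KLF1, an erythroid partner of GATA1.
Ube2h, first start, chr6:30304540-30304789: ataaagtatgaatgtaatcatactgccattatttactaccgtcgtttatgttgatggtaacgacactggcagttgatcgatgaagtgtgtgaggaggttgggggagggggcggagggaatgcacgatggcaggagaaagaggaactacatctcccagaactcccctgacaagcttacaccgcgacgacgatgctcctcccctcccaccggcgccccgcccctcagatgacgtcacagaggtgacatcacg
Ube2h, internal start, chr6:30243804-30244053: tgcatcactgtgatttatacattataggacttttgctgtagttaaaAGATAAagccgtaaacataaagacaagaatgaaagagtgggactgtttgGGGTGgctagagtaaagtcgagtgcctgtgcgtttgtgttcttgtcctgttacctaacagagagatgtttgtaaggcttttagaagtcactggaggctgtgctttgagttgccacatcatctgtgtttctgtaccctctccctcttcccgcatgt
The first start has no match. The internal start has AGATAA with its first base 204 bases upstream and GGGTG 155 bases upstream. Gene counts do not separate the starts, so use of the internal start was not measured.

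Ube2l6 made the largest change of any E2 row with the wildtype. It encodes the E2 of ISG15, a ubiquitin-like protein known from interferon responses, and it also serves RBR ligases, which take ubiquitin onto a cysteine of their own. Ube2l6 (GRCm38, chr2:84798828-84810335, plus strand) stood at 64.3, 59.8 and 60.3 CPM with the empty vector, 66.2, 64.8 and 62.3 with the mutant and 241, 236 and 173 with the wildtype. Wildtype replicate 3 was the lowest of its group and still far above the other 6 libraries. The gene rose 3.52-fold, with a log2 fold change of 1.82 ± 0.13 (edgeR adjusted p 8.96e-07). Mutant and empty vector overlapped, with a log2 fold change of 0.07 ± 0.13 and a range of -0.20 to 0.33 at ±2 SE. The mutant was lower than the wildtype by -1.75 ± 0.13, 3.36-fold (edgeR adjusted p 1.53e-06). The window before its start is shown as that of the E2 gene with the largest change (GRCm38.p6, plus strand, CACCC matches in capitals).
Ube2l6, chr2:84798578-84798827: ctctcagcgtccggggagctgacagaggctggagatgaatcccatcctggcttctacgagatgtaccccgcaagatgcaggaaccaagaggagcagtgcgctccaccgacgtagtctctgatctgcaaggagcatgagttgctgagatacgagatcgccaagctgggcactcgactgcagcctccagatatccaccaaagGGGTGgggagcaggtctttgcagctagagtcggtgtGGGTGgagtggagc
It holds GGGTG with the first base 50 and 14 bases upstream and no GATA spelling. Ube2l3, the closest relative, serves RBR ligases such as HOIP. Ube2l3 gave 56.7, 63.9 and 55.04 CPM with the empty vector, 60.6, 56.5 and 60.6 with the mutant and 55.7, 44.7 and 60.2 with the wildtype. Its groups overlap, and its log2 fold change with the wildtype was -0.13 ± 0.13 (-0.39 to 0.14 at ±2 SE). Exons of Ydjc overlap it on the other strand, and these unstranded counts cannot separate them.

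Among the cell cycle members, Ube2c rose with the wildtype. Ube2s and Ube2t were not called by edgeR over all 9 libraries with TMM factors, the low-count filter and no offsets. UBE2C starts and UBE2S extends the chains that the anaphase-promoting complex (APC/C) builds on mitotic cyclins, and UBE2T serves FANCL in the repair of crosslinked DNA. Ube2c (GRCm38, chr2:164769898-164778822, plus strand) stood at 259.6, 292 and 262 CPM with the empty vector, 259, 259 and 252 with the mutant and 501, 476 and 499.6 with the wildtype. Wildtype libraries lay far above the rest and close to each other. The gene rose 1.81-fold, a log2 fold change of 0.86 ± 0.10 (edgeR adjusted p 5.08e-05), and took 17.1% to 18.8% of the summed E2 CPM there, against 9.49% to 13.8% with the empty vector. The mutant was lower than the wildtype by -0.94 ± 0.10 (edgeR adjusted p 3.03e-05) and differed from the empty vector by -0.08 ± 0.10 (-0.28 to 0.12 at ±2 SE). Tnnc2 overlaps it on the other strand. Beside it, 3 of 10 mitosis genes rose with the wildtype (Aurka, Ccna2 and Birc5), where 11.4% of all genes rose. The mitosis genes summed to 2600 to 2751 CPM with the empty vector, 2581 to 2907 with the mutant and 3199 to 3397 with the wildtype. Their part in the rise of Ube2c was not tested. The window upstream of Ube2c is also given, and like that of the first Ube2h start it holds neither spelling (GRCm38.p6, plus strand).
Ube2c, chr2:164769679-164769928: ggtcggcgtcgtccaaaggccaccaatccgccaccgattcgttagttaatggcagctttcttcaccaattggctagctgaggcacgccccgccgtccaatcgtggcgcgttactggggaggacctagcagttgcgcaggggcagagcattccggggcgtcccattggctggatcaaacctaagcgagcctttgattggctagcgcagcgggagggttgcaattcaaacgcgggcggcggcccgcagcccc
Ube2s gave 3.45, 4.33 and 3.93 CPM with the empty vector, 5.99, 5.18 and 2.92 with the mutant and 6.56, 7.32 and 5.18 with the wildtype, a log2 fold change of 0.70 ± 0.26 with the wildtype (edgeR adjusted p 0.0725, 0.0324 without mutant replicate 3 and 0.04 without wildtype replicate 3), and it shares bases with Rpl28 on the other strand. Ube2s was also called higher by DESeq2, with length and GC offsets (edgeR adjusted p 0.0431) and with no low-count filter (0.0393). Ube2t gave 112, 84.7 and 63.3 CPM with the empty vector, 62.1, 60.05 and 65.98 with the mutant and 78.3, 96.6 and 88.6 with the wildtype. Its empty vector libraries spread over both other groups, and the wildtype differed from them by 0.02 ± 0.17. Mutant and wildtype did not overlap, at -0.49 ± 0.18 (edgeR adjusted p 0.0582, and 0.00037 with the replicate block in these 6 libraries). For this comparison Ube2t was called lower in 8 of 18 alternatives. Among them were DESeq2, RLE factors, length and GC offsets (edgeR adjusted p 0.0247) and no low-count filter (0.0175).

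**Figure D2:**
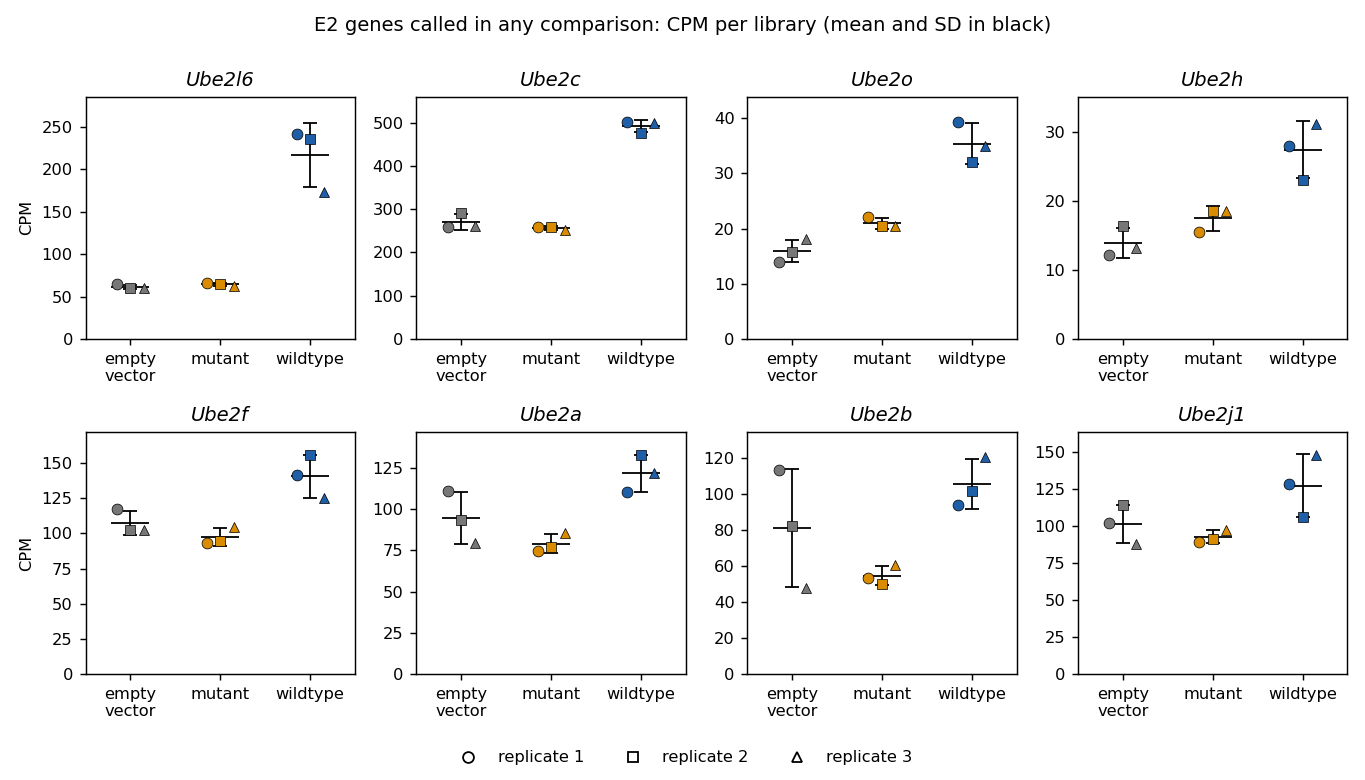
CPM (y axis, from 0) in every library for the 8 E2 genes called in any comparison; symbols mark replicates, colours mark groups, and black lines give the mean and SD of 3 libraries. Ube2l6, Ube2c, Ube2o, Ube2h and Ube2f have all wildtype points above all others, while the empty vector points of Ube2a and Ube2b spread over both other groups.

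Both RAD6 genes were lower with the mutant than with the wildtype. UBE2A and UBE2B are near-identical enzymes that ubiquitinate histone H2B with RNF20 and RNF40 and the clamp PCNA with RAD18. Ube2a (GRCm38, chrX:36873900-36884222, plus strand) stood at 111, 93.5 and 79.4 CPM with the empty vector, 74.5, 77.2 and 85.4 with the mutant and 110.1, 132 and 122 with the wildtype. All mutant libraries lay below all wildtype libraries, and empty vector replicate 1 reached the wildtype range. The log2 fold change of mutant against wildtype was -0.62 ± 0.14 (edgeR adjusted p 0.00583). Against the empty vector, the wildtype gave 0.36 ± 0.14 (edgeR adjusted p 0.0749, and 0.0193 without empty vector replicate 1) and the mutant -0.26 ± 0.14 (edgeR adjusted p 0.428). DESeq2 and the length and GC offsets (edgeR adjusted p 0.00284) also called Ube2a higher with the wildtype. Ube2b (GRCm38, chr11:51985497-52000762, minus strand) gave 113, 82.2 and 47.8 CPM with the empty vector, 53.2, 50.2 and 60.4 with the mutant and 93.7, 102 and 121 with the wildtype. Its empty vector libraries ranged 2.37-fold, with replicate 3 below every mutant library. Mutant against wildtype gave -0.95 ± 0.24 (edgeR adjusted p 0.0113). The wildtype differed from the empty vector by 0.38 ± 0.23 (edgeR adjusted p 0.265, and 0.0338 without empty vector replicate 1), and the mutant by -0.57 ± 0.23 (adjusted p 0.364, and 0.0189 without empty vector replicate 3).

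The E2 enzymes anchored in the endoplasmic reticulum membrane, which work in the degradation of misfolded proteins, were Ube2j1 and Ube2j2. Ube2j1 (GRCm38, chr4:33031416-33052363, plus strand) stood at 102, 114 and 87.7 CPM with the empty vector, 89.3, 91.5 and 97.6 with the mutant and 129, 106 and 147 with the wildtype. Mutant and wildtype did not overlap, at a log2 fold change of -0.46 ± 0.14 (edgeR adjusted p 0.0299). The call is lost without mutant replicate 1, 2 or 3 or wildtype replicate 1 or 3, with the block over 9 libraries and with mutant replicates 1 and 2 summed, at adjusted p-values up to 0.102. Ube2j2 gave 38.1, 35.4 and 35.98 CPM with the empty vector, 35.4, 38.8 and 36.5 with the mutant and 47.5, 45.5 and 42.9 with the wildtype. Every wildtype library was above all others, and the log2 fold change with the wildtype was 0.31 ± 0.12 (edgeR adjusted p 0.0695, and 0.0452 without wildtype replicate 3). Mutant against wildtype gave -0.30 ± 0.12 (edgeR adjusted p 0.0766, and 0.0174 with the replicate block in these 6 libraries). DESeq2 also called Ube2j2 in both of these comparisons, as did the length and GC offsets (edgeR adjusted p 0.0103 for wildtype against empty vector and 0.00698 for mutant against wildtype).

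Among Ube2f, Ube2m and Ube2z, only Ube2f was called. UBE2F and UBE2M load the ubiquitin-like protein NEDD8 onto cullins, and UBE2Z works with the E1 enzyme UBA6. Ube2f (GRCm38, chr1:91250304-91290337, plus strand) stood at 117, 102 and 103 CPM with the empty vector, 92.9, 94.7 and 105 with the mutant and 142, 155 and 125 with the wildtype. The wildtype libraries were above all others, with a log2 fold change of 0.39 ± 0.12 against the empty vector (edgeR adjusted p 0.031). That call is lost in 9 of 17 alternatives, among them the fits without empty vector replicate 2 or 3, wildtype replicate 1 or 2, or mutant replicate 2. Over all 17 alternatives the adjusted p-values ran from 0.00496, with length and GC offsets, to 0.136, without empty vector replicate 2. Mutant against wildtype gave -0.53 ± 0.12 (edgeR adjusted p 0.00639) and was called in all 18 alternatives run. Ube2m gave 7.99, 10.1 and 9.91 CPM with the empty vector, 13.1, 12.4 and 10.3 with the mutant and 11.4, 13.3 and 10.7 with the wildtype. Both GATA1 groups lay above the empty vector, at log2 fold changes of 0.34 ± 0.17 and 0.35 ± 0.17 (edgeR adjusted p 0.177 and 0.403). Ube2z stood between 15.3 and 23.9 CPM over all libraries and was not called.

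No broad-range member, a class that starts chains with many ligases, was called by edgeR over all 9 libraries with the low-count filter and no offsets. Ube2d3, the most counted of them, stood at 571, 472 and 224 CPM with the empty vector, 209, 212 and 332 with the mutant and 306, 259 and 486 with the wildtype. Its highest and lowest empty vector libraries differ 2.55-fold, more than any group means differ. Its log2 fold changes were -0.27 ± 0.31 with the wildtype and -0.75 ± 0.31 with the mutant (edgeR adjusted p 0.563 and 0.365), the latter called without empty vector replicate 3 (-1.05 ± 0.25, adjusted p 0.0299) and with no low-count filter (adjusted p 0.00135). Mutant against wildtype gave -0.48 ± 0.31 (edgeR adjusted p 0.276), and it was lower with the replicate block in these 6 libraries (adjusted p 0.000276), with length and GC offsets (0.0163) and with no low-count filter (0.03). Ube2w, which adds ubiquitin to protein N termini, gave 87.1, 76.8 and 39.6 CPM with the empty vector, 36.8, 35.1 and 48.6 with the mutant and 39.8, 32.7 and 53.8 with the wildtype. Empty vector replicates 1 and 2 stood above all other libraries, and replicate 3 stood among them. Its log2 fold changes were -0.69 ± 0.26 with the wildtype and -0.75 ± 0.26 with the mutant (edgeR adjusted p 0.0772 and 0.333), and -0.96 ± 0.20 and -1.03 ± 0.20 without empty vector replicate 3 (adjusted p 0.00393 and 0.0191). With the wildtype Ube2w was also called lower without wildtype replicate 3 (edgeR adjusted p 0.0274), with length and GC offsets (0.0135) and by DESeq2. With no low-count filter it was called lower with the wildtype and the mutant (edgeR adjusted p 0.0007 and 0.00214). Ube2e1 gave 69.9, 56.8 and 45.96 CPM with the empty vector, 43.6, 41 and 44.1 with the mutant and 42.4, 46.5 and 43.6 with the wildtype, with all mutant libraries below the empty vector and a log2 fold change of -0.42 ± 0.15 (edgeR adjusted p 0.333, and 0.029 without empty vector replicate 3). Ube2e3 differed by -0.43 ± 0.16 with the wildtype (edgeR adjusted p 0.0772, and 0.0107 without empty vector replicate 3). It was also called lower without wildtype replicate 3 (edgeR adjusted p 0.0415), with length and GC offsets (0.0332) and with no low-count filter (0.0214). Ube2d2a differed by 0.14 ± 0.19 with the wildtype (edgeR adjusted p 0.623, and 0.00432 with length and GC offsets) and by -0.25 ± 0.19 for mutant against wildtype (edgeR adjusted p 0.37, and 0.0354 with the replicate block in these 6 libraries). Exons of AC141471.2 overlap Ube2d2a on its own strand. On the other strand, exons of Gm38342, 4930539J05Rik and Nkiras1 overlap Ube2w, Ube2d3 and Ube2e1, in that order.

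Ube2n, Ube2v1 and Ube2v2 were grouped here for K63-linked chains, and Ube2g1, Ube2g2, Ube2k and Ube2r2 for K48-linked chains. None of these rows was called against the empty vector by edgeR over all 9 libraries with the low-count filter and no offsets. UBE2N pairs with the variants UBE2V1 or UBE2V2 for K63-linked chains in DNA repair and signalling. Ube2n stood at 84.8, 78.9 and 67.4 CPM with the empty vector, 60.4, 60.5 and 69.8 with the mutant and 67.5, 66.5 and 78.3 with the wildtype. The ranges overlap throughout, and the log2 fold changes were -0.12 ± 0.13 with the wildtype and -0.28 ± 0.13 with the mutant (-0.53 to -0.02 at ±2 SE). Ube2v2 gave 45.3, 34.6 and 18.1 CPM with the empty vector, 17.7, 16.7 and 21.4 with the mutant and 22, 25.5 and 37.2 with the wildtype, where mutant against wildtype was -0.60 ± 0.28 (edgeR adjusted p 0.136, and 0.00112 with the replicate block in these 6 libraries). Against the empty vector, the mutant was called lower for Ube2v2 without empty vector replicate 3 (-1.10 ± 0.21, edgeR adjusted p 0.0196) and with no low-count filter (adjusted p 0.00314). Ube2v1 stayed at or under 1.54 CPM, and its row shares bases with Gm20431 on its own strand. For K48-linked chains, Ube2g1 gave 151, 134 and 78.6 CPM with the empty vector, 72.7, 69.1 and 99.3 with the mutant and 66.97, 60.8 and 105 with the wildtype. As with Ube2w, empty vector replicates 1 and 2 were the highest libraries, and its log2 fold changes were -0.64 ± 0.25 and -0.59 ± 0.25 (edgeR adjusted p 0.0846 and 0.37). Ube2g1 was called lower with the wildtype without empty vector replicate 3 (-0.87 ± 0.22, adjusted p 0.0116) or wildtype replicate 3 (0.0134), with length and GC offsets (0.0168), with no low-count filter (0.000733) and by DESeq2, and with the mutant without empty vector replicate 3 (-0.82 ± 0.21, adjusted p 0.0386) and with no filter (0.017). Ube2g2, Ube2k and Ube2r2 differed by 0.21 ± 0.12, -0.06 ± 0.14 and 0.10 ± 0.12 with the wildtype, none of them called. Of the Q family, Ube2q1 gave 14.4, 15.1 and 12.4 CPM with the empty vector, 10.9, 13.8 and 13.9 with the mutant and 8.48, 8.96 and 12.03 with the wildtype, all wildtype libraries below the empty vector, at -0.51 ± 0.18 (edgeR adjusted p 0.0648, 0.0472 with empty vector replicate 3 left out and 0.0162 with that of the wildtype left out). Ube2q2 and Ube2cbp differed by -0.17 ± 0.25 and -0.30 ± 0.18 and were not called, the latter apart from the length and GC offsets (adjusted p 0.0369).

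One split of the libraries ran through much of the family without following the groups. In 13 of 30 E2 rows, empty vector replicates 1 and 2, mutant replicate 3 and wildtype replicate 3 were each above the remaining libraries of their own group, as in 20.6% of all tested genes. The opposite split occurred in 0 E2 rows and in 17.1% of all genes. The 13 rows were Ube2w, Ube2e3, Ube2q1, Ube2d3, Ube2j1, Ube2k, Ube2n, Ube2q2, Ube2b, Ube2g1, Ube2v2, Ube2l3 and Ube2d2a. The longest transcripts of these rows had a median GC content of 40.9%, against 50.5% for the other tested E2 rows and 49.4% for all genes. Across the 30 rows, the deviation of a library from its group mean correlated with GC content at Pearson's r of 0.72 for empty vector replicate 3 and -0.71 for replicate 1, and at -0.53 and -0.58 for mutant and wildtype replicate 3. These points share libraries, and r is a description across genes, which are not independent replicates. Over all tested genes r was 0.63 for empty vector replicate 3 and -0.53 for replicate 1. With offsets for length and GC content, 10 E2 rows were called higher and 4 lower with the wildtype, against 18.0% and 16.3% of all genes under these offsets, and Ube2l6, Ube2c, Ube2o and Ube2h remained called. These 4 genes were called with the wildtype in all 17 alternatives. The part of GC content in the other values was not tested beyond this.

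**Figure D3:**
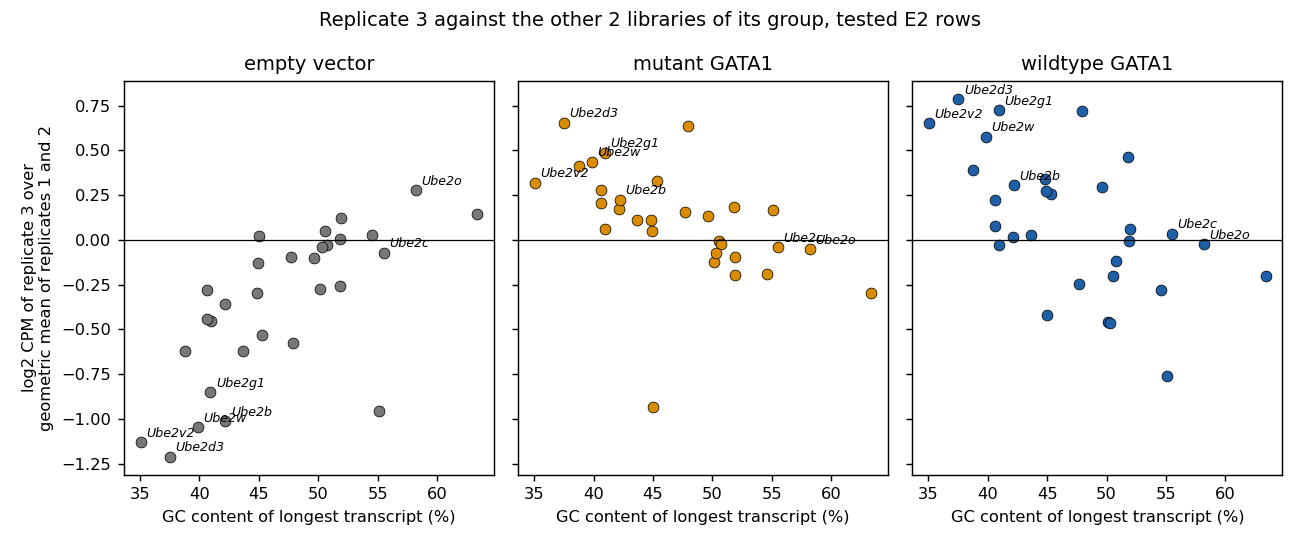
For each group, the log2 ratio of CPM in replicate 3 to the geometric mean of replicates 1 and 2 (y axis) against the GC content of the longest transcript in percent (x axis), 1 point for each of 30 tested E2 rows. Rows of low GC content such as Ube2d3, Ube2v2 and Ube2w lie low with the empty vector, down to -1.21, and high with mutant and wildtype GATA1, up to 0.66 and 0.79.

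RefSeq start sites (GRCm38.p6) were matched for 31 of 39 rows, in 42 windows of 250 bases before a start. A GATA spelling lay in 2 of the 42 windows (4.76%), the internal start of Ube2h and the start of Ube2s, against 26.5% of all 32851 windows. CACCC lay in 29 of 42 (69.0%), against 52.0% of all windows. For the called E2 genes there were 10 windows of 7 genes, 1 with a GATA spelling and 7 with CACCC. Ube2o was not matched. A match is a description of the letters, and these windows leave out distal elements.

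The genes that work with E2 enzymes were followed in 11 lists of 142 genes, of which 136 were tested. With the wildtype 18 rose and 8 fell (edgeR, adjusted p under 0.05), 13.2% and 5.88% of those tested against 11.4% and 11.9% of all genes. The number that fell was 4 with wildtype replicate 1 or empty vector replicate 2 left out and 5 with mutant replicate 1 left out. It was 15 with empty vector replicate 3 left out (12.8% of all genes) and 19 with wildtype replicate 3 left out (16.3%). With the mutant 0 rose and 0 fell against the empty vector (0.21% and 0.0601% of all genes). An unadjusted edgeR p under 0.05 was found for 15 (12.9% of all genes). DESeq2 called 1 in each direction (0.631% of all genes higher and 0.391% lower). Leaving out empty vector replicate 3 gave 2 higher and 13 lower (2.25% and 6.05% of all genes), and leaving out wildtype replicate 3 gave 1 lower (0.109%). Against the wildtype, the mutant was higher for 10 and lower for 22, 7.35% and 16.2% of those tested against 13.2% and 12.7% of all genes. The replicate block in these 6 libraries gave 25 higher and 44 lower, 18.4% and 32.4% against 23.6% and 24.5% of all genes. The higher count was 4 to 6 without mutant replicate 1, 2 or 3 or wildtype replicate 1 or 2, and the lower count was 13 without mutant replicate 1 or 2.

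The CTLH ligase, the partner of UBE2H, had 3 of 11 members higher with the wildtype and none lower, where 11.4% and 11.9% of all genes were called. Gid8, a scaffold subunit, stood at 58.6, 62.5 and 63.5 CPM with the empty vector, 66.8, 65.1 and 58.9 with the mutant and 134, 136 and 123 with the wildtype. Its log2 fold change was 1.09 ± 0.11 with the wildtype (edgeR adjusted p 1.26e-05) and -1.05 ± 0.11 for mutant against wildtype (edgeR adjusted p 2.21e-05). Ranbp10, which is built into the complex in place of RANBP9, gave 14.6, 16.8 and 18.2 CPM with the empty vector, 30.3, 26.8 and 24.2 with the mutant and 42.6, 30.4 and 38.6 with the wildtype. The mutant lies between the other groups, as for Ube2o, with mutant replicate 1 and wildtype replicate 2 nearly equal. The wildtype raised it by 1.17 ± 0.16 (edgeR adjusted p 0.000194), and mutant against empty vector was 0.72 ± 0.16 (edgeR adjusted p 0.128). The mutant was called higher without empty vector replicate 3 (0.79 ± 0.18, adjusted p 0.0269), with length and GC offsets (0.0475) and with no low-count filter (0.0068). Mutant against wildtype gave -0.46 ± 0.16 (edgeR adjusted p 0.0503), called lower with the replicate block in these 6 libraries (adjusted p 0.00366), the offsets (0.00195) and without empty vector replicate 3 (0.0404). Ypel5 rose by 0.93 ± 0.15 (edgeR adjusted p 0.000613), with 61.1, 54.1 and 63.7 CPM in the wildtype libraries and 33.7, 35.3 and 25.1 CPM in the empty vector libraries. Maea, a RING subunit of the ligase, gave 242, 279.6 and 292 CPM with the empty vector, 301, 310.5 and 273 with the mutant and 241, 236 and 203 with the wildtype. It was not called with the wildtype (-0.26 ± 0.12) and was higher with the mutant than with the wildtype (0.38 ± 0.12, edgeR adjusted p 0.0319). That call for Maea is lost without mutant replicate 1 or 2, any wildtype replicate or empty vector replicate 2, with the block over 9 libraries and with mutant replicates 1 and 2 summed. Against the wildtype, Gid8 and Ypel5 were lower with the mutant, and without wildtype replicate 2 the count of lower members was 4.

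The APC/C, the ligase served by Ube2c and Ube2s, had 4 of 17 members higher with the wildtype and 1 lower, beside the same 11.4% and 11.9% of all genes. Anapc16 and Anapc5, subunits of the complex, rose by 0.63 ± 0.16 and 0.58 ± 0.12 (edgeR adjusted p 0.0133 and 0.003). Fbxo5, an inhibitor of the complex, rose by 0.52 ± 0.11 (edgeR adjusted p 0.00455). Cdc20 was the other member called higher and Anapc4 the one called lower, both named after their values were seen. Without empty vector replicate 2 the higher count was 2, Anapc16 was not called without that replicate or wildtype replicate 2, and Anapc4 was not called without empty vector replicate 1 or 2, wildtype replicate 1 or 2 or mutant replicate 1.

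Endoplasmic reticulum degradation, where Ube2g2, Ube2j1 and Ube2j2 act, had 5 of 12 tested members higher with the wildtype and 1 lower (all genes 11.4% and 11.9%). Rnf139, a membrane ligase, gave 52.8, 40.4 and 32.4 CPM with the empty vector, 33.9, 34.97 and 51.4 with the mutant and 77.1, 79.6 and 89.9 with the wildtype, a log2 fold change of 0.97 ± 0.19 (edgeR adjusted p 0.00293). Aup1, which recruits UBE2G2, rose by 0.65 ± 0.13 (edgeR adjusted p 0.00239), and Rnf5 by 0.64 ± 0.15 (edgeR adjusted p 0.00769). Derl1 was also called higher, and Sel1l the single member called lower; both are named after their values were seen. Sel1l was not called without any one of mutant replicates 1 to 3, wildtype replicate 1 or 2 or empty vector replicate 2 or 3. The lower count was 2 with wildtype replicate 3 left out (16.3% of all genes), or empty vector replicate 1. Rnf139 and Aup1 were also lower with the mutant than with the wildtype (-1.04 ± 0.19 and -0.53 ± 0.13, edgeR adjusted p 0.00207 and 0.00843).

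In the cullin and NEDD8 list, 4 of 19 members fell with the wildtype (11.9% of all genes) and none rose (11.4%). Dcun1d4, which helps NEDD8 transfer, fell by 0.80 ± 0.16 on the log2 scale (edgeR adjusted p 0.00249). Cul7, a cullin, gave 35.8, 50.3 and 58.96 CPM with the empty vector, 72.7, 64.9 and 65.3 with the mutant and 30.1, 27.8 and 31.5 with the wildtype, and it was higher with the mutant than with the wildtype by 1.18 ± 0.17 (edgeR adjusted p 0.000253). Cand1, which exchanges cullin substrate receptors, changed by -0.51 ± 0.12 with the wildtype (edgeR adjusted p 0.0105), and Skp2, named after its value was seen, was the fourth. The count that fell was 2 with wildtype replicate 1 left out and 2 with empty vector replicate 2 left out. It was 7 with empty vector replicate 3 left out (12.8% of all genes). In this list 1 member rose when wildtype replicate 3 was left out (16.0% of all genes) and 2 when empty vector replicate 1 was. Rnf7, the RING partner of UBE2F, was lower with the mutant than with the wildtype (-0.77 ± 0.22, edgeR adjusted p 0.0223), a call lost without mutant replicate 1 or 2 or wildtype replicate 2, with length and GC offsets and with mutant replicates 1 and 2 summed.

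Of 17 tested E1 enzymes and modifier genes, Uba7 alone was called with the wildtype, where 11.4% of all genes rose and 11.9% fell. UBA7 is the E1 enzyme of ISG15 and so stands before UBE2L6. Uba7 gave 28.6, 32.99 and 28.8 CPM with the empty vector, 29.4, 29.5 and 27.99 with the mutant and 47.2, 49.8 and 49.3 with the wildtype, with the wildtype above all others, a log2 fold change of 0.69 ± 0.12 (edgeR adjusted p 0.000999) and -0.75 ± 0.12 for mutant against wildtype (edgeR adjusted p 0.000629). Isg15 itself was under the filter, at 0.0649 to 0.703 CPM over the libraries. Usp18, the protease of ISG15, was lower with the mutant than with the wildtype (-1.001 ± 0.27, edgeR adjusted p 0.0184), at 1.13, 1.45 and 0.974 CPM and 2.88, 2.31 and 1.93 CPM, a call lost without mutant replicate 1 or 3 or wildtype replicate 1. Without wildtype replicate 3, 3 E1 and modifier genes rose and 1 fell, against 16.0% and 16.3% of all genes. Rnf14 was the single RBR or ISG15 list member called with the wildtype (0.35 ± 0.11, edgeR adjusted p 0.035), and it was not called without wildtype replicate 1 or 2, empty vector replicate 2 or 3 or mutant replicate 2, with mutant replicates 1 and 2 summed, with no low-count filter, with only the 6 libraries compared or with the block. In that list 2 members fell with wildtype replicate 3 left out (16.3% of all genes) and 1 with empty vector replicate 3 left out (12.8%).

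Trim10, a RING ligase of erythroid cells, had the largest log2 fold change among the partner genes. Trim10 gave 49.4, 47.1 and 46.7 CPM with the empty vector, 58.7, 59.4 and 58.3 with the mutant and 231, 219 and 188 with the wildtype, a rise of 2.15 ± 0.11 with the wildtype (edgeR adjusted p 4.43e-08). Rnf123 rose by 1.07 ± 0.17 (edgeR adjusted p 0.000519), so 2 of 4 tested red cell ligases were higher, and Trim58 had no count. Of all genes 11.4% rose and 11.9% fell with the wildtype. Of 11 genes that remove ubiquitin or bind E2 enzymes, Usp28 fell by 0.85 ± 0.17 on the log2 scale (edgeR adjusted p 0.00322), from 25.97, 21.5 and 27.7 CPM with the empty vector to 14.8, 10.8 and 15.99 CPM. Usp15 and Otub2 were higher (0.44 ± 0.12 and 0.42 ± 0.12, edgeR adjusted p 0.0202 and 0.0229); neither was called without wildtype replicate 1 or without empty vector replicate 1, nor with only the 6 libraries compared, and Otub2 was not called without empty vector replicate 2, with no low-count filter or with the block. Aktip, an E2-like protein without the active-site cysteine, fell by 0.72 ± 0.15 (edgeR adjusted p 0.00425), the single called gene of 7 tested E2 genes under other names. That list had 1 further member down when replicate 3 of the wildtype (16.3% of all genes) or of the empty vector (12.8%) was left out. It had 1 up when that of the wildtype was left out (16.0%). None of 14 DNA damage and K63 genes and none of 12 SUMO ligases and proteases was called with the wildtype by edgeR. With wildtype replicate 3 left out, 1 and 3 of them fell, where 16.3% of all genes fell. With empty vector replicate 3 left out, 1 and 2 fell and 1 SUMO gene rose, where 12.8% of all genes fell and 11.0% rose. Senp2, a SUMO protease, was lower with the mutant than with the wildtype (-0.64 ± 0.15, edgeR adjusted p 0.00905), and Pias3, a SUMO ligase, was higher (0.60 ± 0.16, edgeR adjusted p 0.0183), the latter not without mutant replicate 1 or 3 or wildtype replicate 2.

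**Figure D4:**
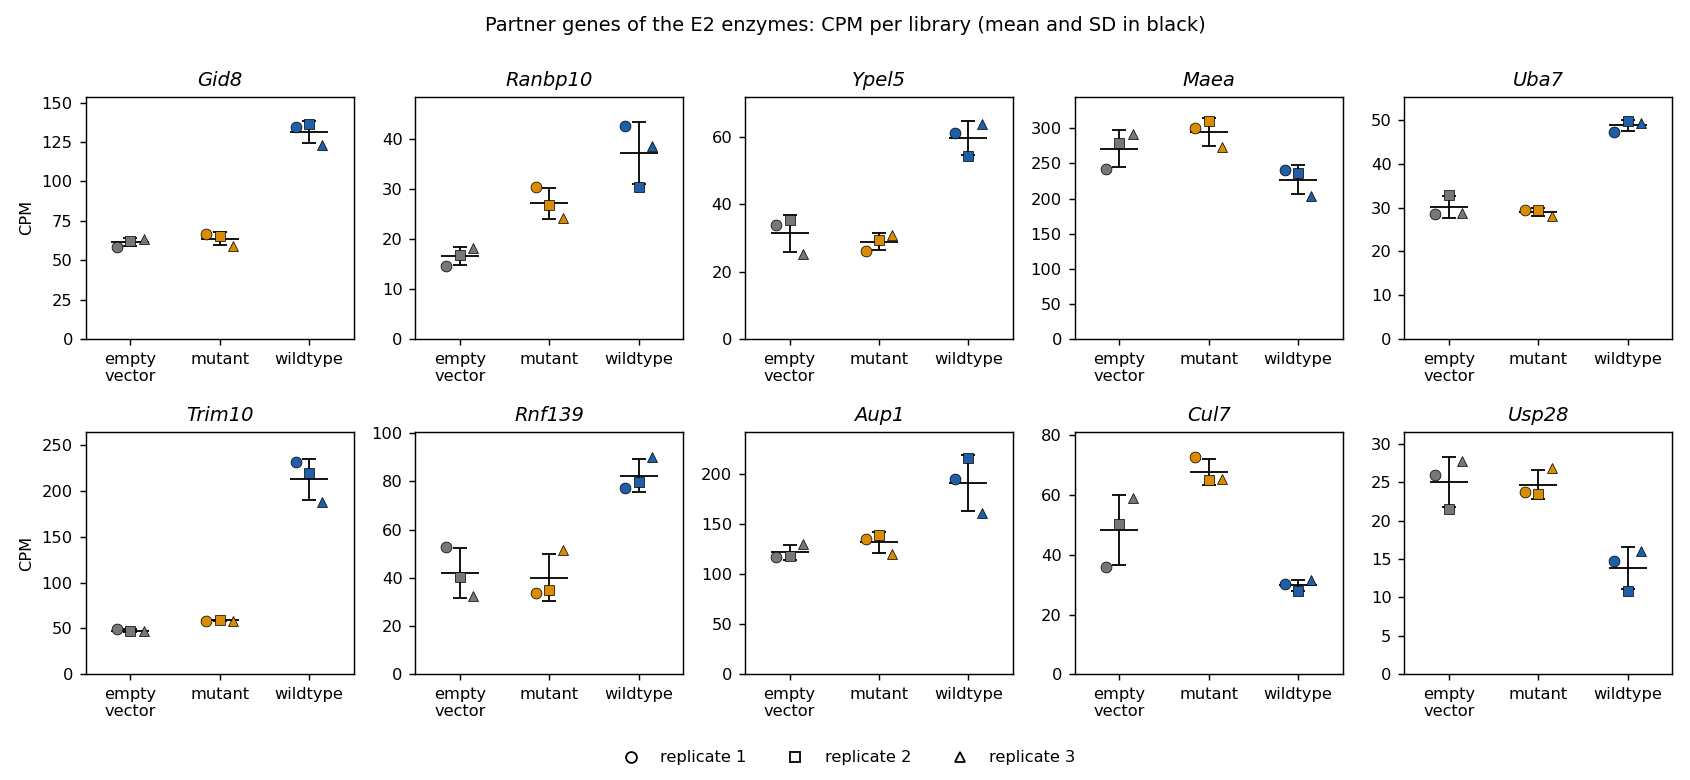
CPM (y axis, from 0) in every library for 10 partner genes; symbols mark replicates, colours mark groups, and black lines give the mean and SD of 3 libraries. Gid8, Ypel5, Uba7, Trim10, Rnf139 and Aup1 have all wildtype points above all others, Ranbp10 has the mutant between the other groups, and Cul7 and Usp28 have all wildtype points below all others.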

How the data were processed

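RNA was sequenced in 9 libraries of G1E cells (Smart-seq2 with Nextera-based indexing, a method that keeps no strand), per the labels' protocols. The authors deposited raw read counts per gene; STAR and the builds GRCm38.p4 and hg19 are named in the submitters' processing notes, while the counting tool, its gene annotation and its handling of multi-mapped reads are not given in the sources used. Groups and replicate numbers came from the labels. Counts were fitted with edgeR 4.0.16 in R 4.3.3: TMM factors, filterByExpr, glmQLFit and glmQLFTest over all 9 libraries (6 residual degrees of freedom), and Benjamini-Hochberg adjustment over 9978 genes in each comparison. The human GATA1 row was left out of the fits. Calls are at an adjusted p under 0.05. Each SE was derived from the test (size of the log2 fold change divided by the root of F) and is approximate. CPM used TMM-scaled library sizes. The series calls the samples biological replicates; how cultures were kept apart is not stated, so p-values reflect only how these libraries vary, and floors cover counting error only, since the reads carry no molecular identifiers.

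Positions, exon lengths and GC content are from GENCODE M21 (GRCm38), matched by symbol, and the length and GC offsets used the 9649 tested genes (96.7%) with both values. Start sites are from RefSeq. The E2 members and all lists were chosen with earlier results of these data known. Values in every library are given for called E2 rows and for Ube2n, Ube2d3 and Ube2l3; from each partner list, up to 3 called members with the largest change per comparison are named, and other E2 rows were shown in full for their roles. Some of those partner genes are only counted, and the values of 1 tested E2 row, 1 partner gene and 1 marker gene are not reported here. Mutant replicates 1 and 2 differed by more than sampling noise (chi-square 2.20 per degree of freedom), but far less than other pairs within groups (14.5 to 53.8). This value cannot tell separate cultures from repeated libraries of the same material. The replicates were kept as 2 samples, as labelled, and summed as an alternative. Deviations from group means of same-numbered mutant and wildtype libraries correlated at 0.31, 0.46 and 0.69. Mutant replicate 1 with wildtype replicate 2, and mutant replicate 2 with wildtype replicate 1, gave 0.37 and 0.35. Pairs of replicate 3 with replicate 1 or 2 of the other group gave -0.58 to -0.42. The numbers thus set replicate 3 apart in both groups and do not clearly pair replicates 1 and 2. Between same-numbered libraries of either GATA1 group and the empty vector all correlations were negative. Alternatives were RLE factors, DESeq2 1.42.0, no low-count filter, 5 CPM in 3 libraries, only the 6 libraries compared, a replicate block, length and GC offsets, each library left out, and mutant replicates 1 and 2 summed; the block within 6 libraries was chosen after seeing the data. The fit was tested on simulated counts.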

Additional observations from a re-analysis of the deposited data

How the results depend on the processing

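No result changed direction with a call. The share of all genes called also differed between fits. Mutant against empty vector had 0.0601% of all genes lower over all 9 libraries and 6.05% without empty vector replicate 3. Counts given without the share in the same fit are therefore not results about the E2 or partner genes. Of the E2 rows called higher with the wildtype (5), DESeq2 gave 8 and length and GC offsets 10, with 4 to 7 when a library was left out. Of those called lower (0), DESeq2 gave 2, the offsets 4 and no low-count filter 3, with 0 to 5 when a library was left out. For the mutant against the empty vector, no filter gave 5 lower and the offsets 0, and leaving out a library gave 0 to 7 lower and 0 higher. For mutant against wildtype, the replicate block within the 6 libraries gave 13 lower and 1 higher, and leaving out a library gave 6 to 10 lower and 0 to 1 higher; the block over 9 libraries gave 7 lower, and 4 higher for wildtype against empty vector. Between wildtype or mutant and the empty vector the numbers do not pair the samples. Partner genes lower with the wildtype (8) numbered 14 with the offsets (16.3% of all genes). They numbered 15 with no filter, 5 with only 6 libraries and 5 with the block. Leaving out a library gave 4 to 19 lower and 14 to 23 higher. For the mutant against the empty vector, 1 partner gene was higher with DESeq2, the offsets or no filter, 1 was lower with DESeq2 or the offsets and 5 with no filter, and leaving out a library gave 0 to 2 higher and 0 to 13 lower. For mutant against wildtype, partner genes higher (10) and lower (22) numbered 5 and 13 with mutant replicates 1 and 2 summed, 25 and 44 with the block within 6 libraries, and 6 higher with the block over 9 libraries; leaving out a library gave 4 to 15 higher and 13 to 30 lower. The cause of these shifts was not tested. With 3 libraries per group, depth does not limit the called E2 rows, all above 12 CPM, while Ube2s and Ube2v1 rest on few counts.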
